A study of Mus musculus with 12 samples.

Results

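The average response to thymopentin over 2 mouse models of colitis was measured as the difference between 6 thymopentin and 6 saline libraries of colon RNA, with the model kept as a block. These are all 12 libraries of the series, assigned by their treatment labels, and the unit compared is the library. Every mouse is labelled wild type (WT) and as having colitis, induced with trinitrobenzene sulfonic acid (TNBS) or dextran sulfate sodium (DSS). The 4 groups are TNBS with normal saline, TNBS with thymopentin, DSS with normal saline and DSS with thymopentin, with 3 libraries each. No colon without colitis is among them, and the sources used here do not state dose, timing, age, sex, strain or time of day of collection. The labels do not say that the 3 libraries of a group came from separate animals, so each p-value measures only the spread between these libraries, which may be technical.

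Thymopentin is a synthetic peptide that corresponds to the active stretch of the thymic hormone thymopoietin and is used to modulate immunity. TNBS is a hapten that modifies colon proteins and sets off a response led by T cells, whereas DSS damages the epithelium so that bacteria of the lumen reach the tissue below. In both models inflamed epithelium and recruited leukocytes switch on cytokines, interferon-induced genes and enzymes that make nitric oxide or hydrogen peroxide, while genes of mature colonocytes (transporters and detoxifying enzymes) commonly decline. The series title puts the question of the study to neutrophil extracellular traps, webs of chromatin and granule proteins released by neutrophils. A difference shared by both models is what the average response records. Opposite responses cancel in it, and they also widen the spread against which it is tested.

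Expression was read as FPKM, fragments scaled to transcript length and library size, and differences are given as log2(FPKM + 1), thymopentin minus saline, ± SE of the fit over 12 libraries (limma, model as block, 9 residual degrees of freedom). Summed FPKM ran from 384431 to 532510 per library, and 13160 to 13805 genes per library reached 1 FPKM. Colon markers were present: the summed FPKM of 20 absorptive colonocyte genes was 2376 to 6944 and that of 12 goblet cell genes 6029 to 12084, with no member at 0 in any whole group. Libraries of a group correlated at r = 0.932 to 0.977 across genes, arms of a model at 0.933 to 0.968 and different models at 0.848 to 0.944, where genes are not independent replicates. TNBS saline 3 stood apart: Hoxb13, a homeobox gene that marks distal colon, was at 50.04, 86.9 and 0.722 FPKM in TNBS saline 1, 2 and 3. Its 8 adipocyte markers summed to 119.6 FPKM, against 2.70 and 8.24 in the other TNBS saline libraries. In DSS the adipocyte sum was 25.8 to 176 with saline and 4.60 to 26.8 with thymopentin, and the sum of 8 distal Hox genes was 100.02 to 111.7 and 161 to 205.5. The part of these differences in the results was not tested.

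Of 55335 genes, 13794 had a mean of at least 1 FPKM and were tested, and 375 were called at an adjusted p under 0.05, which is 2.72% of those tested. Thymopentin libraries were higher for 257 of them (1.86% of tested genes) and lower for 118 (0.855%), and 3184 genes had an unadjusted p under 0.05. The size of the difference reached 2-fold on the FPKM + 1 scale for 24 higher and 32 lower genes. For 287 of the 375, thymopentin and saline libraries did not overlap in TNBS and did not overlap in DSS, in the same direction. The same separation held for 726 of all tested genes, or 5.26%, 4.05% with thymopentin higher and 1.22% with it lower. Leaving out TNBS saline 3 gave 230 higher and 127 lower genes.

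The balance of rises and falls depended on how libraries were scaled. With FPKM as deposited 68.5% of called genes were higher, with median-ratio factors 36.4% (94 higher, 164 lower), and with quantile normalization 48.3% (152 higher, 163 lower). As deposited, the median gene differed by 0.07 on average, by 0.03 in TNBS and by 0.12 in DSS, and median-ratio scaling moved the DSS median to 0.01. The number of calls also rested on single libraries. Dropping TNBS saline 2 gave 575 calls and dropping TNBS thymopentin 3 gave 224. It was 72 without DSS saline 3, 80 without DSS thymopentin 1, 84 without DSS thymopentin 3, 89 without TNBS saline 1, 94 without DSS thymopentin 2, 120 without DSS saline 1 and 150 without DSS saline 2. A smaller set is defined by its calls in these fits. It holds 62 genes that were called in each of 12 fits with 1 library left out, 34 higher and 28 lower (0.449% of tested genes). Of these, 61 also did not overlap in either model, as did 287 of all 375 calls. Some of the 62, such as Iigp1 and Gstm1, lost their calls with replicate numbers as a block.

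**Figure D1:**
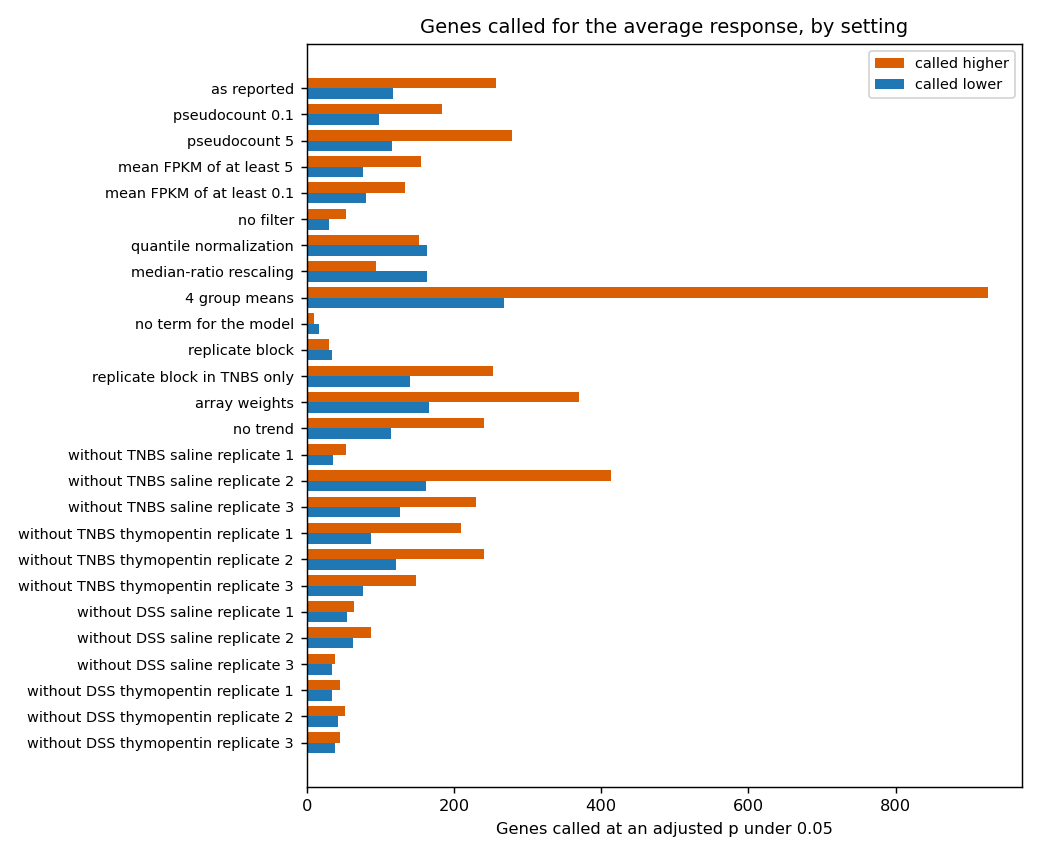
Number of genes called higher (orange) and lower (blue) with thymopentin in the average response, for the analysis as reported and for each alternative setting. Bars start at 0; the analysis as reported gave 257 higher and 118 lower genes, and fits without 1 library ranged from 72 calls in all to 575.

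When each model was tested alone in a fit of the 4 groups, 92 genes were called in TNBS (0.667%) and 2346 in DSS (17% of tested genes). Of the 375 average calls, 24 were called in both models alone, 280 in DSS alone, 13 in TNBS alone and 58 in neither. Such counts do not test whether the models differ, and the difference between models was itself called for 25 of the 375. No called gene had within-model differences of opposite sign. Over all tested genes, 6052 (43.9%) had opposite signs. In the plot of TNBS against DSS differences, called genes therefore lie only in the upper right and lower left corners of the plot. Opposite responses cancel in the average and widen its spread, so calling on the average selects for like signs. The contrast in signs is no measure of agreement between the models.

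**Figure D2:**
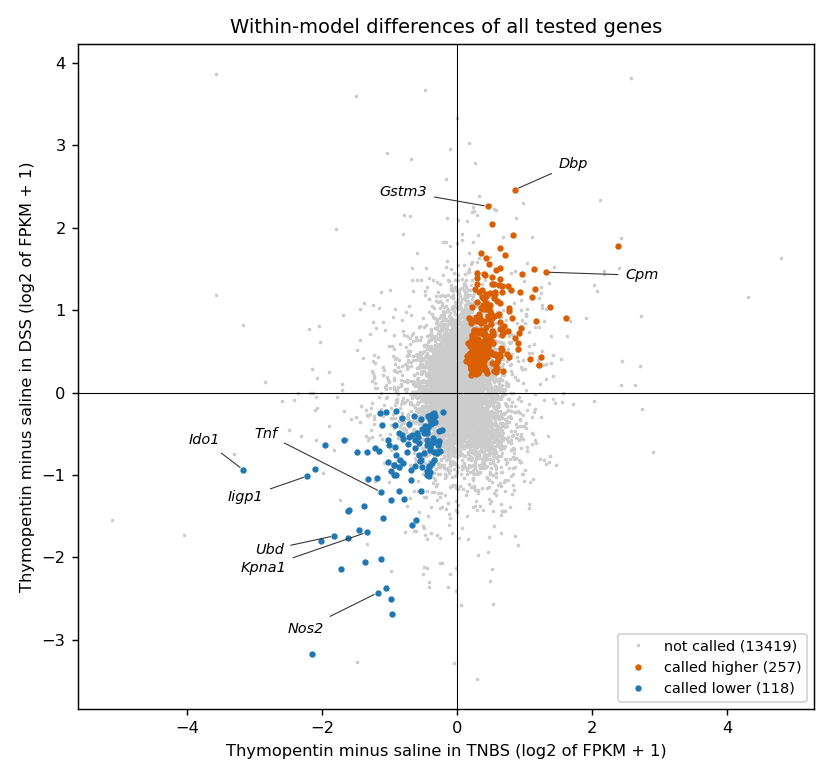
Thymopentin minus saline difference of each of 13794 tested genes in TNBS (horizontal axis) and in DSS (vertical axis), both as log2(FPKM + 1). Orange and blue points are the 257 genes called higher and 118 called lower in the average response, which all lie where both models have the same sign, and grey points were not called.

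The clearest fall was in Kpna1 (ENSMUSG00000022905), which encodes an importin alpha, an adaptor that carries proteins with a nuclear localization signal into the nucleus. Kpna1 was at 6.08, 5.80 and 6.78 FPKM with saline and 1.73, 1.69 and 2.15 with thymopentin in TNBS, and at 3.77, 4.66 and 3.76 with saline against 0.640, 0.674 and 0.375 with thymopentin in DSS; values on either side of "against" are saline and then thymopentin libraries throughout. All 6 thymopentin libraries lay below all 6 saline libraries, whichever model they came from. The average difference was -1.52 ± 0.096 (limma adjusted p = 5.09e-05), which was the lowest adjusted p of all genes tested. It stayed called in each of the 12 fits that leave out 1 library, with an adjusted p of up to 0.00045. A call that held in all these fits is said to hold without any 1 library. For calls that did not, the libraries whose omission ends the call are named, or only counts over these fits are given. A call can end because the fit is smaller and the cutoff moves, without that library carrying the difference. The authors' tables of selected genes give 1823 to 2575 reads for Kpna1 in TNBS saline, 563 to 731 in TNBS thymopentin, 1229 to 1527 in DSS saline and 130 to 210 in DSS thymopentin, so the fall did not rest on few reads. Other nuclear import genes, chosen for comparison after their values were seen, were not called. Kpna3, Kpna4 and Kpna6 had average differences of 0.07 ± 0.083, 0.09 ± 0.079 and 0.16 ± 0.066, and Kpna2 and the importin beta gene Kpnb1 of 0.35 ± 0.16 and 0.16 ± 0.069. Their adjusted p-values (limma) lay between 0.181 and 0.627, and with median-ratio scaling the difference of Kpna3 was -0.01.

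Nos2, Duox2 and Duoxa2, genes of nitric oxide and hydrogen peroxide production, fell on average. Nos2 (ENSMUSG00000020826), the inducible nitric oxide synthase, was at 13.1, 16.9 and 14.1 FPKM with saline and 5.39, 8.70 and 4.29 with thymopentin in TNBS, and at 14.8, 15.3 and 16.7 against 2.11, 2.16 and 1.97 in DSS. No thymopentin library reached the lowest saline library. Its average difference was -1.80 ± 0.22 (limma adjusted p = 0.00558). The fall was larger in DSS than in TNBS (-2.43 against -1.18), and that difference between models was itself called (adjusted p = 0.0281). Duoxa2, the maturation factor that brings the oxidase Duox2 to the cell surface, averaged 94.5 ± 10.3 FPKM with saline and 52.4 ± 12.4 with thymopentin in TNBS, and 73.2 ± 15.7 and 38.2 ± 5.76 in DSS (SD, n = 3 each), a difference of -0.88 ± 0.13 (limma adjusted p = 0.0128). Duox2 itself differed by -0.61 ± 0.14 (limma adjusted p = 0.0429), a call lost whichever library was left out, TNBS saline 2 and TNBS thymopentin 2 excepted (adjusted p up to 0.0998). Xdh, xanthine dehydrogenase, which can form superoxide, fell by 0.66 (adjusted p = 0.0135) and kept its call without any 1 library.

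Nox1, the superoxide-forming oxidase of colon crypts, went the other way. It was at 10.7, 11.9 and 11.3 FPKM with saline and 13.7, 18.2 and 12.6 with thymopentin in TNBS, and at 1.25, 1.05 and 0.687 against 7.42, 3.74 and 5.62 in DSS. The arms did not overlap in either model, but the rise of 1.02 ± 0.24 (limma adjusted p = 0.0479) was mainly in DSS, with a called difference between models (adjusted p = 0.0288). The call of Nox1 was lost with median-ratio scaling and with quantile normalization (adjusted p = 0.0683 and 0.0533). It was also lost without any 1 DSS library, TNBS thymopentin 2 or TNBS saline 1 (up to 0.111).

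Of the secreted defence proteins measured, Saa3 fell. Saa3, an acute-phase serum amyloid A that binds bacteria and retinol, was at 2.65, 6.55 and 3.12 FPKM with saline and 0.963, 0.635 and 0.227 with thymopentin in TNBS, and at 2.47, 4.77 and 6.05 against 0.660, 0.407 and 0.552 in DSS. Every thymopentin library was below 1 FPKM and every saline library above 2. The difference was -1.69 ± 0.21 (limma adjusted p = 0.00558), close to equal in both models (-1.62 and -1.76), and was called without any 1 library (adjusted p up to 0.0201). Of 16 tested members of the list of epithelial antimicrobial genes, 4 were called lower (Nos2, Duox2, Duoxa2 and Saa3), 1 was called higher (Nox1) and 11 were not called, and the list median was -0.70 against 0.07 over all tested genes, of which 2.72% were called. Larger but uneven differences did not pass. Reg3b, a secreted antibacterial lectin, was at 113, 1.47 and 236 FPKM in TNBS saline and 0.791, 16.4 and 0.455 in DSS saline, and below 1 FPKM in all thymopentin libraries. Its difference of -3.33 ± 1.12 had a limma adjusted p of 0.116. Retnlb, a goblet cell product that binds bacteria, had -2.89 ± 0.77 (0.066). Lcn2, a siderophore-binding protein of neutrophils and epithelium, had -0.80 ± 0.27 (limma adjusted p = 0.122), with -0.12 in TNBS and -1.47 in DSS.

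Hp, which encodes haptoglobin, an acute-phase binder of free haemoglobin, was at 1.05, 3.01 and 3.67 FPKM with saline and 0.369, 0.898 and 0.414 with thymopentin in TNBS, and at 3.76, 5.12 and 2.29 against 0.0691, 0.0808 and 0.255 in DSS. All saline libraries were above all thymopentin libraries, and the difference was -1.57 ± 0.24 (limma adjusted p = 0.0135). Fat tissue also expresses haptoglobin. Adiponectin (Adipoq), a product of fat cells, was at 0.0734, 0 and 8.30 FPKM in TNBS saline, 0.590, 0.258 and 0.856 in TNBS thymopentin, 5.16, 8.57 and 1.56 in DSS saline and 0.408, 0 and 1.97 in DSS thymopentin. The Adipoq difference was not called (-1.10 ± 0.57, adjusted p = 0.273), and none of 5 tested adipocyte markers was. Hp stayed called without any 1 library (limma adjusted p up to 0.0372). The part of the adipocyte markers in the fall of Hp was not tested.

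Of the cytokine genes that passed the level filter, most fell. Tnf, the central cytokine of inflammatory bowel disease, was at 5.71, 5.05 and 7.17 FPKM with saline and 1.87, 2.62 and 2.05 with thymopentin in TNBS, and at 7.39, 7.39 and 7.73 against 1.57, 3.99 and 2.90 in DSS. The lowest saline library was above the highest thymopentin library over both models. Its difference of -1.17 ± 0.14 (limma adjusted p = 0.00546) was -1.13 in TNBS and -1.20 in DSS, and it was called without any 1 library (up to 0.0191). Il1b, the pyrogenic product of inflammasome activation, was at 5.85, 8.04 and 1.58 against 0.851, 1.06 and 1.39 FPKM in TNBS and 7.21, 3.49 and 4.04 against 0.911, 1.30 and 1.40 in DSS. Its groups did not overlap either, and it differed by -1.38 ± 0.27 (adjusted p = 0.0282). TNBS saline 3 held the least Il1b of the saline libraries. The Il1b call was lost without any 1 DSS thymopentin library, DSS saline 1 or 3, or TNBS saline 1 (adjusted p up to 0.0733). Lif, a cytokine of the IL-6 family, fell by 0.39 (limma adjusted p = 0.0409) and lost its call whichever library was left out, TNBS saline 2 excepted (up to 0.0879). Of 14 cytokines and mediators 6 were tested, 4 were called lower (Nos2 is the fourth) and none higher, against 0.855% of all tested genes called lower, with a median of -1.19. The other 8, Il6 and Il17a among them, were below 1 FPKM on average. Of the 2 tested that did not pass, Il22 was at -1.21 and Ptgs2 at -0.73.

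Il4ra, Il18bp, Ripk3 and Trim40 fell by smaller but steady amounts. Il4ra, the receptor chain shared by IL-4 and IL-13, averaged 10.9 ± 0.657 FPKM with saline and 6.18 ± 1.29 with thymopentin in TNBS, and 10.6 ± 0.571 and 6.07 ± 0.753 in DSS (SD, n = 3 each). That is a difference of -0.73 ± 0.088 (limma adjusted p = 0.00529), nearly the same in both models (-0.75 and -0.72). Il18bp, a soluble decoy that binds IL-18, fell by 0.59, and Ripk3, the kinase that drives necroptosis, by 0.83 (limma adjusted p = 0.0135 and 0.00914). Trim40, a ubiquitin ligase of gut epithelium that restrains NF-kB, fell by 0.96 (adjusted p = 0.0135). These 4 calls held without any 1 library. Zc3h12a, an RNase that degrades cytokine transcripts, was the called member among 13 tested NF-kB feedback genes, at -0.66 ± 0.12 (adjusted p = 0.0208), and it lost its call without DSS saline 3 or DSS thymopentin 2 or 3 (up to 0.0592). The median of those 13 genes was -0.19, and 7.69% of them were called, with 2.72% called over all tested genes.

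Several interferon gamma targets fell. Of 18 tested members of the list of interferon gamma targets and GTPases, 8 were called lower (Ido1, Gbp2, Gbp4, Gbp6, Igtp, Iigp1, Tgtp1 and Tgtp2) and none higher, where 0.855% of all tested genes were called lower. The median of the 18 was -0.71 on average, -1.13 in TNBS and -0.44 in DSS. Iigp1, an immunity-related GTPase that destroys the vacuoles of intracellular parasites, was at 7.05, 8.94 and 11.9 FPKM with saline and 0.688, 2.22 and 0.866 with thymopentin in TNBS, and at 54.5, 39.7 and 41.04 against 18.1, 23.5 and 23.6 in DSS. The arms were apart within each model, although DSS libraries with thymopentin held more Iigp1 than TNBS libraries with saline. It differed by -1.62 ± 0.25 (limma adjusted p = 0.0128) and was called without any 1 library (up to 0.0324).

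The other 7 called members lost their calls in 1 or more of the fits with 1 library left out. Ido1, the enzyme that starts tryptophan breakdown, was at 30.7, 27.6 and 20.4 against 2.20, 4.04 and 0.645 FPKM in TNBS and at 73.2, 48.3 and 57.1 against 33.5, 33.5 and 24.5 in DSS. Its fall, -2.05 ± 0.40 (limma adjusted p = 0.0301), was larger in TNBS, where the lowest saline library held several times the highest thymopentin library, and the difference between models was called (adjusted p = 0.0301). Igtp, Tgtp1 and Tgtp2, GTPases of the same family as Iigp1, fell by 1.29, 1.12 and 1.10, and the guanylate-binding proteins Gbp2, Gbp4 and Gbp6 by 0.75, 0.68 and 0.68 (limma adjusted p = 0.0208 to 0.0467). Tgtp1 and Tgtp2 are near-identical copies, so how reads were shared between them makes their separate values uncertain. With 1 library left out, the called members of the list numbered from 2 (without DSS saline 1 or without DSS thymopentin 1) to 8. They were 3 without TNBS saline 1 or DSS saline 3, 4 without DSS thymopentin 3, and 6 or 7 without the other libraries except TNBS thymopentin 3. Highest adjusted p-values over those fits were 0.0647 for Igtp, 0.071 for Tgtp1, 0.0557 for Tgtp2, 0.0667 for Ido1, 0.0605 for Gbp4, 0.0645 for Gbp6 and 0.1 for Gbp2, whose call was lost whichever library was left out, TNBS thymopentin 3 excepted. Cxcl9, which draws T cells, was not called (-0.80 ± 0.21, adjusted p = 0.0616), but was with median-ratio or quantile scaling (adjusted p = 0.0492 and 0.0422).

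The promoters of 4 of these 8 genes (Gbp2, Tgtp1, Tgtp2 and Igtp) were in the RefSeq table, and they are shown because all 4 hold the letters bound by interferon factors close to the start. Searched on both strands were GAAANNGAA, the core of the interferon-stimulated response element read by IRF proteins, and TTCNNNGAA, the gamma-activated site of interferon gamma targets. The 120 bases before each annotated start are printed 5′ to 3′ on the strand of the gene (GRCm38.p6), with both motifs in capitals:
Igtp, chr11:58199436-58199555, plus strand: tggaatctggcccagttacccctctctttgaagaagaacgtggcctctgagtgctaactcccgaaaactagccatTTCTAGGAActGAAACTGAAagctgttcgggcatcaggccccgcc
Tgtp1, chr11:48992247-48992366, minus strand: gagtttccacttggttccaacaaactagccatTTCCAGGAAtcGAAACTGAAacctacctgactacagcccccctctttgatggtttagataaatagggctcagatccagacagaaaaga
Tgtp2, chr11:49064213-49064332, minus strand: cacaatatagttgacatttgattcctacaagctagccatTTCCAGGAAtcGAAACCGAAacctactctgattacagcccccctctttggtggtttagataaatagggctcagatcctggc
Gbp2, chr3:142620543-142620662, plus strand: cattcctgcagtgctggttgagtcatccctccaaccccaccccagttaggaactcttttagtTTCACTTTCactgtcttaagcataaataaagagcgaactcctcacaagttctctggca
In the first 3 both motifs are present and do not overlap: the gamma-activated site begins 45, 88 and 81 bases before the start of Igtp, Tgtp1 and Tgtp2, and the response element 34, 77 and 70 bases before it. Gbp2 holds the response element alone, on the opposite strand, 58 bases before its start.

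Over the 250 bases before the start, the response element letters were in 18.1% of 83 promoters of called-lower genes, 6.36% of 220 promoters of called-higher genes, 6.34% of 11820 promoters of tested genes and 7.13% of all 32851 in the table. For the gamma-activated site the shares were 13.3%, 4.55%, 5.85% and 7.02%. These counts include the 4 genes above, and 72 of 116 lower and 176 of 256 higher gene symbols matched the table. A match of letters is a description and not a site of binding.

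Some genes that load MHC class I with peptides also fell, by smaller amounts. B2m, the light chain of MHC class I molecules, averaged 1047 ± 136 FPKM with saline and 505 ± 81.97 with thymopentin in TNBS, and 3350.4 ± 151 and 2839.8 ± 186 in DSS (SD, n = 3 each). Of 13 tested class I and immunoproteasome genes 4 were called lower and none higher, against 0.855% of all tested genes called lower: B2m at -0.65 ± 0.15, the immunoproteasome subunits Psmb9 at -0.70 ± 0.17 and Psmb10 at -0.55 ± 0.11, and the proteasome activator Psme1 at -0.46 ± 0.10 (limma adjusted p = 0.0335 to 0.049). These calls were not steady with 1 library left out. The called members numbered 0 in 8 fits, those without any 1 DSS library, TNBS thymopentin 1 or TNBS saline 1, and 1 or 2 in the other 4. The differences moved less: over the 12 fits B2m ran from -0.71 to -0.54 and Psmb9 from -0.77 to -0.59. B2m was not called with quantile normalization (limma adjusted p = 0.265). For B2m and Psmb9 the fall was larger in TNBS, with a called difference between models (adjusted p = 0.0436 and 0.0407). Ubd, which encodes the ubiquitin-like modifier FAT10, was at 14.7, 25.4 and 5.25 against 4.89, 4.72 and 0.745 FPKM in TNBS and 165, 217 and 205 against 45.3, 70.6 and 59.3 in DSS. It fell by about the same amount in both models (-1.82 and -1.74, average adjusted p = 0.0344) and lost its call without any 1 DSS library or without TNBS saline 1 (up to 0.0853).

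No MHC class II gene of 10 tested passed in the analysis as reported, where 2.72% of all tested genes were called. H2-Aa, H2-Ab1 and the invariant chain Cd74 had average differences of -0.92 ± 0.35, -0.89 ± 0.30 and -0.87 ± 0.36 (limma adjusted p = 0.116 to 0.177), with a list median of -0.64. Without TNBS saline 3, 1 member of the list was called, with 357 calls over all 13794 tested genes. With replicate numbers as a block, in both models or in TNBS only, 5 members were called lower. Over all tested genes, 34 were called lower with the block in both models and 141 with the block in TNBS only. Cd74 in TNBS ran 122, 192 and 55.4 FPKM with saline and 71.5, 108 and 25.5 with thymopentin, so the arms overlapped. In DSS Cd74 ran 480, 755 and 686 with saline and 268, 414 and 392 with thymopentin, without overlap. The arms of H2-Aa and H2-Ab1 likewise overlapped in TNBS and not in DSS. Markers of antigen-presenting and T cells are given beside these genes. In DSS, 14 macrophage and dendritic cell genes summed to 415.8 to 572.6 FPKM with saline and 311.1 to 371.2 with thymopentin, without overlap, and in TNBS to 88.03 to 226 and 84.2 to 172.3, with overlap. The sum of 13 T cell genes was 10.5 to 28.8 with saline and 3.49 to 12.6 with thymopentin in TNBS, and 151 to 204 and 124 to 168 in DSS, with overlap in both models. No tested member of either list was called, and their part in the lower MHC values was not tested. In bulk colon RNA, fewer cells of a type and less RNA per cell cannot be told apart.

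**Figure D3:**
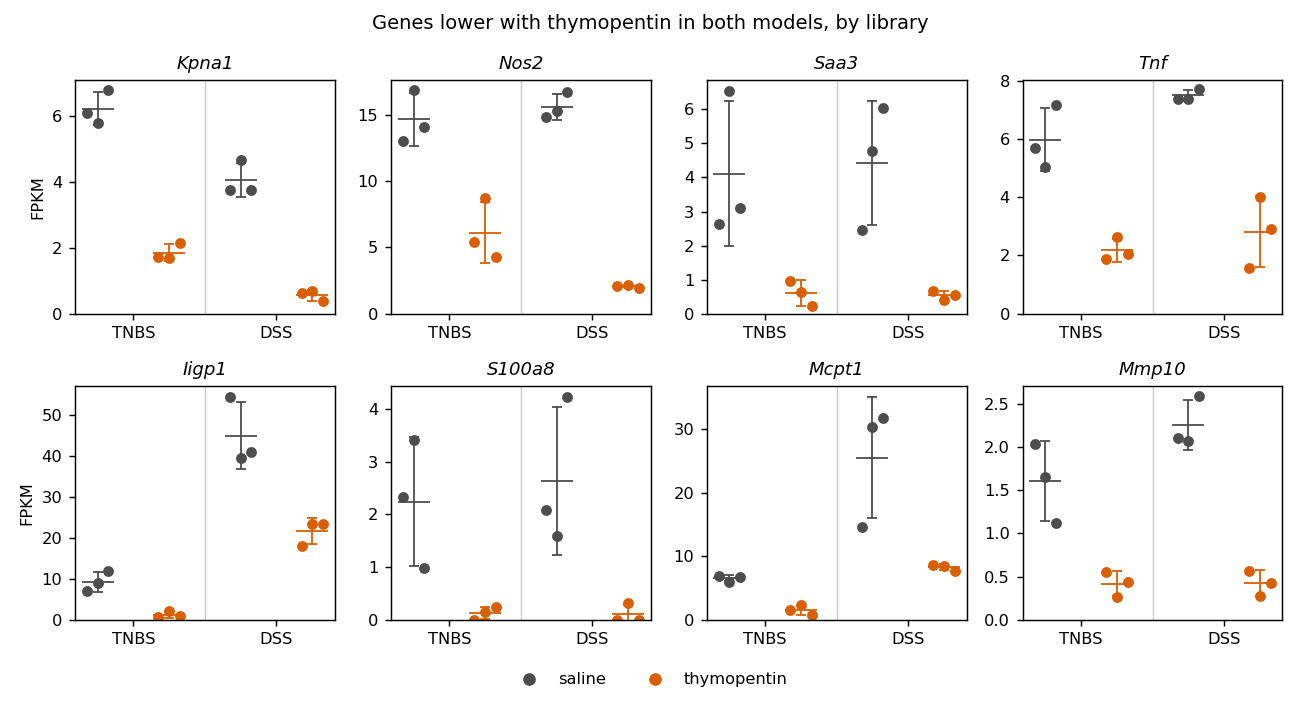
FPKM by library of 8 genes that were called lower with thymopentin in the average response and in each fit with 1 library left out. Points are libraries (grey saline, orange thymopentin), bars are the mean and SD of 3 libraries, and in each panel saline and thymopentin points do not overlap within TNBS or within DSS.

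Calprotectin, the S100a8 and S100a9 complex that fills the cytosol of neutrophils and is measured in stool to follow colitis, is encoded by genes that both fell, at low levels. S100a8 was at 2.32, 3.42 and 0.984 FPKM with saline and 0, 0.148 and 0.236 with thymopentin in TNBS, and at 2.08, 1.59 and 4.22 against 0, 0.315 and 0 in DSS. In reads that is 31 to 88 against 0 to 7, and 43 to 113 against 0 to 8. The groups did not overlap, the difference was -1.56 ± 0.21 (limma adjusted p = 0.00835), and it was called without any 1 library (up to 0.0263). S100a9 was at 3.49, 3.84 and 0.631 against 0.737, 0.204 and 0 FPKM in TNBS, where the lowest saline library lay below the highest thymopentin library. In DSS it was at 3.93, 2.24 and 3.54 with saline and listed at 0 in all 3 thymopentin libraries, so no fold is given there. Its average difference was -1.71 ± 0.27 (adjusted p = 0.0138), called without any 1 library.

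No other tested neutrophil gene was called in the average. Ly6g and Cd177, surface proteins used to mark neutrophils, had average differences of 0.31 ± 0.65 and 0.02 ± 0.23 (limma adjusted p = 0.813 and 0.972), with opposite signs in TNBS and DSS and, for Cd177, an average of -0.08 with median-ratio and -0.02 with quantile scaling. The Ly6g value was -0.32 without TNBS saline 3. Ly6g and Cd177 had means of 136 and 67.8 FPKM over the 12 libraries, far above the 1.28 and 1.55 of S100a8 and S100a9. How much of the Ly6g and Cd177 signal came from neutrophils was not tested. The chemokines Cxcl1 and Cxcl5, which attract neutrophils, had -0.96 ± 0.32 and -1.01 ± 0.41 (adjusted p = 0.114 and 0.176). None of 8 tested granule and trap genes was called, with a median of -0.32. A further 19 genes lay below the level filter and were compared by an exact permutation test within models (400 relabellings, two-sided, smallest possible p 0.005). They are neutrophil markers, granule and trap genes, and also chemokines and growth factors that act on neutrophils (Cxcl2, Cxcl3, Ppbp, Csf2 and Csf3). The granule genes Ctsg and Ngp were listed at 0 in all libraries and were not tested. Ltf, the granule protein lactoferrin, was at 0.264, 0.902 and 0.129 FPKM with saline and 0.158, 0.0890 and 0 with thymopentin in TNBS. In DSS it was at 1.07, 1.56 and 2.54 against 0.129, 0.123 and 0.0542. The arms overlapped in TNBS and not in DSS (exact p = 0.01). Mmp9, a gelatinase of neutrophil granules, also had an exact p of 0.01, and Trem1, Csf3r and Cxcl2 of 0.015, each adjusted to 0.057 over the 19. Cxcr2 and Cxcl3 had an exact p of 0.04 and 0.045, and Fpr1 and Camp, the cathelicidin precursor, of 0.05. Of the 19, only Padi4 had a positive average log2 difference. The others were lower with thymopentin, some by amounts near 0, such as -0.0023 for Prtn3. Padi4, the enzyme that citrullinates histones in trap formation, was listed at 0 in 6 of 12 libraries and was 0.0643 FPKM at most (exact p = 0.275). Mpo and Elane, granule enzymes found on traps, were listed at 0 in nearly all libraries (exact p = 1). After adjustment none of the 19 was under 0.05. A single gene at the smallest possible p of 0.005 would not have passed that adjustment over 19. The adjusted values therefore do not show that these genes were unchanged.

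Mcpt1, Mcpt2 and Mmp10, which encode proteases, fell. Mcpt1, a chymase of mucosal mast cells, was at 6.88, 5.98 and 6.67 FPKM with saline and 1.51, 2.34 and 0.738 with thymopentin in TNBS, and at 14.6, 30.3 and 31.8 against 8.66, 8.51 and 7.73 in DSS. The arms did not overlap within a model, although DSS libraries with thymopentin held more Mcpt1 than TNBS libraries with saline, and the difference was -1.53 ± 0.19 (limma adjusted p = 0.00559), nearly equal in both models. Mcpt2, a second mucosal chymase, fell by 1.11 (adjusted p = 0.0259), with overlap of the arms in DSS, and lost its call without DSS thymopentin 1 or 3, DSS saline 2 or 3, or TNBS saline 1 (up to 0.0667). Of 10 mast cell and eosinophil markers 3 were tested, and the third, Kit, a receptor kinase, had a difference of 0.18 and was not called. The share called lower over all tested genes was 0.855%. The 10 markers summed to 15.8 to 18.9 FPKM in TNBS saline against 8.53 to 14.5 with thymopentin, and to 26.5 to 55.3 against 18.4 to 19.8 in DSS. Mcpt1 and Mcpt2 are part of these sums, with means of 6.51 and 3.15 FPKM in TNBS saline and 1.53 and 0.818 in TNBS thymopentin. The sums therefore do not show a fall of the other markers. Mmp10, stromelysin-2, which epithelium at wound edges makes, was at 2.04, 1.65 and 1.12 against 0.554, 0.264 and 0.441 FPKM in TNBS and 2.10, 2.07 and 2.59 against 0.569, 0.276 and 0.431 in DSS. All 6 thymopentin libraries were below all 6 saline libraries (-1.03 ± 0.11, limma adjusted p = 0.00529). Mmp10 was the called member among 10 tested matrix proteases and inhibitors, with 2.72% called over all tested genes. Plaur, the urokinase receptor, fell by 0.93 (adjusted p = 0.0336) and lost its call without any 1 DSS thymopentin library, DSS saline 1 or 3, TNBS thymopentin 3 or TNBS saline 1 (up to 0.0857).

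Capg, Creb3l3, Apol6 and Sulf2 also fell. Capg, an actin-capping protein, fell by 0.95, and Creb3l3, a membrane-bound transcription factor of liver and gut that controls acute-phase and lipid genes, by 1.18 (limma adjusted p = 0.0153 and 0.0163). Apol6, an apolipoprotein L, fell by 0.87, and Sulf2, a sulfatase that edits heparan sulfate outside the cell, by 0.54 (adjusted p = 0.0126 and 0.00649). These 4 were called without any 1 library. Some larger falls were less steady: Clca4b, of the calcium-activated chloride channel regulators, was at 50.3, 56.9 and 37.9 against 18.8, 24.8 and 1.62 FPKM in TNBS and at 110.2, 179 and 315 against 17.8, 30.4 and 13.8 in DSS. With -2.66 ± 0.52 (limma adjusted p = 0.0301), its arms did not overlap, but its call was lost without any 1 DSS library or without TNBS saline 1 (up to 0.0778). Plet1, a surface protein of epithelial progenitors and of cells at healing wounds, fell by 1.91 and Mfsd2a, a lysophospholipid carrier, by 1.74 (adjusted p = 0.0231 and 0.0185). Plet1 lost its call without DSS thymopentin 2 or 3, DSS saline 3 or TNBS saline 1 (up to 0.0672), and Mfsd2a without DSS saline 3 or DSS thymopentin 1 (up to 0.0543). Clca4b, Plet1, Mfsd2a and Plaur were chosen after their values were seen. Among 10 tested immediate early genes, Ier3, a stress-induced survival factor, was the called one, lower by 0.87 (limma adjusted p = 0.0191), a call lost without DSS saline 3 or DSS thymopentin 1 or 3 (up to 0.0566). The share called over all tested genes was 2.72%.

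Among rises, Cpm (ENSMUSG00000020183) was the largest that held without any 1 library. It encodes carboxypeptidase M, a membrane enzyme that trims basic residues from peptides. Cpm was at 3.75, 5.09 and 3.64 FPKM with saline and 15.02, 9.85 and 10.8 with thymopentin in TNBS, and at 2.24, 2.29 and 1.89 against 9.79, 7.55 and 5.94 in DSS. All thymopentin libraries stood above all saline libraries, with a difference of 1.39 ± 0.13 (limma adjusted p = 0.00115; up to 0.00639 without 1 library). Camk1d (ENSMUSG00000039145), a calcium/calmodulin-dependent kinase, was at 7.72, 10.01 and 7.15 against 15.02, 14.96 and 15.6 FPKM in TNBS and at 5.26, 5.28 and 4.94 against 11.5, 10.3 and 9.76 in DSS. Its groups were narrow and apart within each model (0.86 ± 0.077, adjusted p = 0.00115), and its responses were alike in size (0.81 in TNBS and 0.90 in DSS). The membrane peptidase genes Dpp4 and Anpep also rose: Dpp4, which clips incretin hormones, by 0.56, and Anpep, aminopeptidase N, by 0.51 (limma adjusted p = 0.00914 and 0.0153). Both held without any 1 library.

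Several single genes of colonocyte metabolism rose. Slc5a8, a sodium-coupled carrier that takes up butyrate, was at 52.9, 66.1 and 46.5 FPKM with saline and 85.5, 86.9 and 69.1 with thymopentin in TNBS, and at 26.5, 27.8 and 24.5 against 59.7, 48.3 and 45.1 in DSS. The groups did not overlap within a model, and the difference was 0.73 ± 0.12 (limma adjusted p = 0.0138). Acsm3, a mitochondrial synthetase that activates medium-chain fatty acids, was at 15.9, 25.4 and 14.8 against 36.7, 32.6 and 39.4 FPKM in TNBS and 7.54, 8.87 and 8.48 against 27.2, 20.9 and 24.6 in DSS. Every thymopentin library exceeded the saline libraries of its model (1.19 ± 0.14, adjusted p = 0.00529). Maob, monoamine oxidase B, rose by 0.72, and Pcca, a subunit of propionyl-CoA carboxylase, by 0.54 (limma adjusted p = 0.00734 and 0.0149). These 4 held without any 1 library. Acss2, which makes acetyl-CoA from acetate, rose by 0.72 (adjusted p = 0.0242), with overlap in TNBS and a larger response in DSS (difference between models, adjusted p = 0.0484). Its call was lost without any 1 DSS library or without TNBS saline 1 (up to 0.0659). Of 17 tested genes of fatty acid oxidation and ketogenesis none was called, and their median was 0.07, as over all tested genes.

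Of 19 tested markers of mature colonocytes, Slc26a3, the chloride/bicarbonate exchanger lost in congenital chloride diarrhoea, was the called member. It was at 73.1, 65.9 and 73.5 against 234, 144 and 144 FPKM in TNBS and 62.4, 87.1 and 67.7 against 112, 97.9 and 82.8 in DSS, a difference of 0.84 ± 0.18 (limma adjusted p = 0.0399). The arms overlapped in DSS. Its call was lost with median-ratio scaling (adjusted p = 0.0779) and without DSS thymopentin 1 or 2, DSS saline 1 or 3, TNBS thymopentin 2 or 3, or TNBS saline 1 or 3 (up to 0.0863). The median of the 19 was -0.11, and 5.26% of them were called, with 2.72% called over all tested genes. Among 16 tight junction genes, Ocln, occludin, was the called member, which is 6.25% of them. It rose by 0.72 (limma adjusted p = 0.04). Its arms overlapped in TNBS, and the call was lost with median-ratio scaling (0.068) and without any 1 DSS library, TNBS thymopentin 3 or TNBS saline 1 (up to 0.0868).

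Glutathione transferases, which couple glutathione to electrophiles, formed much of the called part of the list of detoxifying enzymes. Gstm1 was at 61.05, 63.6 and 72.8 FPKM with saline and 97.98, 108 and 99.7 with thymopentin in TNBS, and at 62.2, 49.3 and 45.8 against 124, 139 and 147 in DSS. All thymopentin libraries exceeded all saline libraries, with 1.002 ± 0.14 (limma adjusted p = 0.00914), and the rise was larger in DSS (difference between models, adjusted p = 0.0376). Gstm2 and Gstm7, added after their values were seen, rose by 0.68 and 0.70 (adjusted p = 0.0128 and 0.00558), and these 3 calls held without any 1 library. Of 22 tested detoxifying enzymes 6 were called higher (Gstm1, Gstm3, Gstm6, Gsta3, Gstt1 and the cytochrome Cyp2c69) and none lower, where 1.86% of all tested genes were called higher. The list median was 0.34 on average, -0.03 in TNBS and 0.39 in DSS. Gstm3 was at 17.1, 13.7 and 25.2 against 25.00, 30.5 and 20.8 FPKM in TNBS, where the arms overlapped, and at 7.70, 3.65 and 3.99 against 27.8, 24.9 and 28.6 in DSS, where they did not. Its average of 1.36 ± 0.32 (adjusted p = 0.0481) thus came mainly from DSS (difference between models, adjusted p = 0.0254), as did the 0.84 ± 0.19 of Gsta3 (0.0239), whereas Cyp2c69 rose more in TNBS (1.22 against 0.34, adjusted p = 0.0342). With median-ratio scaling 3 members of the list were called, and with quantile normalization 2. The number was 1 without DSS saline 3 or DSS thymopentin 1 or 3, 2 without TNBS saline 1, DSS saline 2 or DSS thymopentin 2, and 3 without DSS saline 1 or TNBS thymopentin 1 or 2. Mu-class transferases are close paralogs, so reads shared between them make their separate values uncertain. Ugt2b35, a glucuronosyltransferase, rose by 1.19 ± 0.18 (adjusted p = 0.0135) and Akr1b3, aldose reductase, by 0.57 ± 0.073 (0.00615), both held without any 1 library.

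Several circadian clock genes rose. The circadian clock runs on CLOCK and BMAL1 (Arntl), which switch on Per, Cry, Nr1d and Dbp genes through E-boxes, and these products repress or tune the loop. Of 16 tested clock genes 6 were called higher (Dbp, Tef, Nr1d1, Nr1d2, Per2 and Per3) and none lower, against 1.86% of all tested genes called higher, with a list median of 0.44. Nr1d2, a haem-binding repressor, was at 7.73, 8.88 and 6.16 FPKM with saline and 12.9, 10.2 and 10.6 with thymopentin in TNBS, and at 8.03, 10.97 and 9.42 against 17.4, 19.5 and 18.6 in DSS. The arms did not overlap in either model (0.71 ± 0.11, limma adjusted p = 0.0135), and it was the 1 clock gene called without any 1 library. Dbp, a PAR-domain activator with a strong daily rhythm, was at 0.952, 0.836 and 0.624 against 3.44, 2.64 and 1.15 FPKM in TNBS and 1.82, 5.53 and 4.53 against 18.4, 29.7 and 27.6 in DSS. It was higher in each thymopentin library than in any saline library of its model, with 1.66 ± 0.33 (adjusted p = 0.0303).

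The remaining clock genes rose by 1.13 (Nr1d1), 0.85 (Per3), 0.75 (Per2) and 0.75 (Tef), with limma adjusted p = 0.0361 to 0.0461. In Nr1d1 the arms overlapped in TNBS, with 9.69, 14.2 and 4.39 FPKM against 32.8, 20.4 and 11.1. Median-ratio scaling ended the calls of Nr1d1, Per2 and Tef (adjusted p = 0.0697, 0.0545 and 0.0626), and quantile normalization those of Nr1d1 and Tef (0.0609 and 0.0552). The number of clock genes called higher was 1 without any 1 DSS thymopentin library, DSS saline 3 or TNBS saline 1, 2 without TNBS thymopentin 1 or DSS saline 2, 3 without TNBS saline 3 or DSS saline 1, and 7 without TNBS saline 2. Arntl and Cry1, whose daily peaks lie away from those of Dbp, had -0.13 ± 0.11 and -0.35 ± 0.15 and were not called (adjusted p = 0.501 and 0.202). Clock differed by 1.08 in DSS and 0.18 in TNBS (difference between models, adjusted p = 0.0306), and its average was not called (adjusted p = 0.0609). With no stated time of day of collection, a difference in collection time between arms cannot be told apart from one of treatment.

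Of the 6 called clock genes, 5 had promoters in the RefSeq table, and 2 are shown because they hold the letters of clock elements. Searched on both strands in the 250 bases before the start were CACGTG, the E-box of CLOCK and BMAL1, and TTATGNAA, the D-box of DBP and TEF. Stretches of 80 bases are printed 5′ to 3′ on the strand of the gene (GRCm38.p6), with the motifs in capitals:
Per3, chr4:151044806-151044885, minus strand: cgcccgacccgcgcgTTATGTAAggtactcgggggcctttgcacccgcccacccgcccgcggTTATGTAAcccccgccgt
Tef, chr15:81802513-81802592, plus strand: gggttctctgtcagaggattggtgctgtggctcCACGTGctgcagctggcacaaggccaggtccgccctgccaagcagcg
The D-boxes of Per3 begin 205 and 158 bases before its start, and the E-box of Tef 127 bases before. A second annotated start of Tef has an E-box 138 bases before it. In this window these letters were not found for Dbp, Nr1d1 or Nr1d2. The table has 6.02% of all promoters with the E-box letters and 3.07% with the D-box letters, and over tested genes the shares were 8.22% and 1.95%. In 220 promoters of called-higher genes they were 6.82% and 3.18%.

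**Figure D4:**
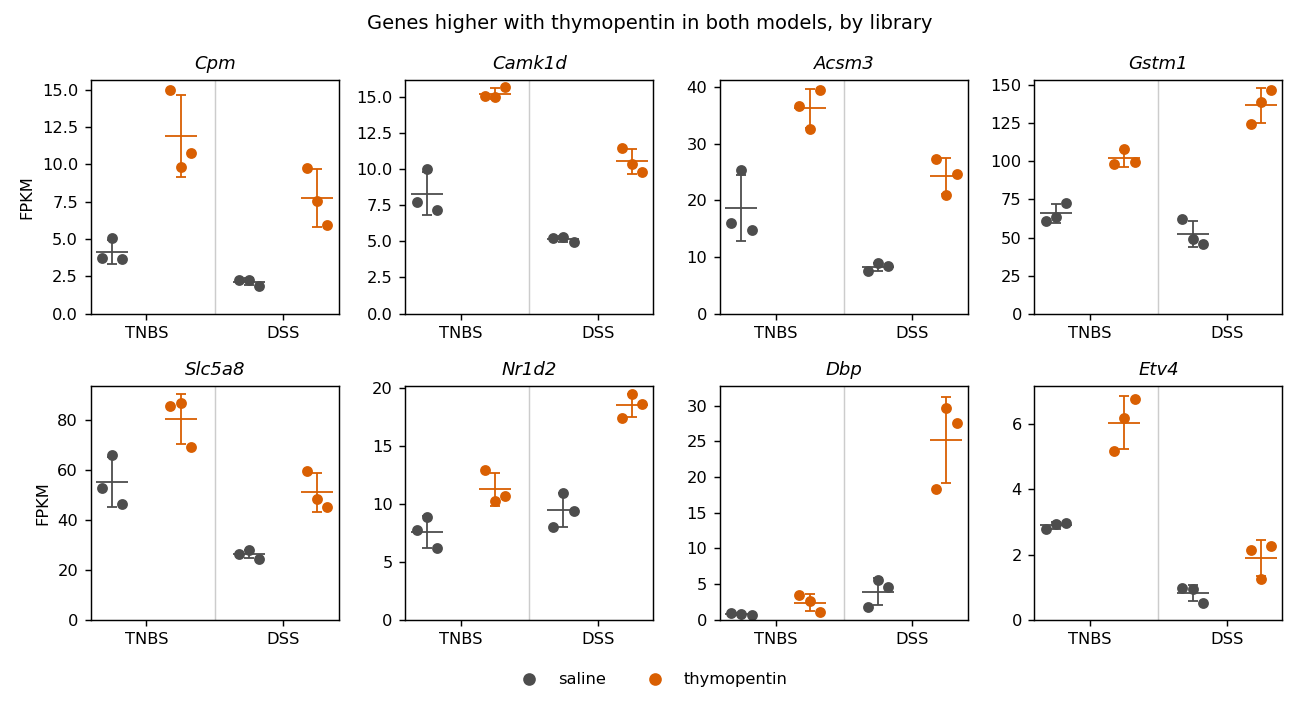
FPKM by library of 8 genes called higher with thymopentin in the average response. Points are libraries (grey saline, orange thymopentin) and bars the mean and SD of 3 libraries; in each panel the arms do not overlap within TNBS or within DSS, and 7 of the 8 genes, all but Dbp, were called in each fit with 1 library left out.

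Etv4, Axin2, Sox9, Myb and Smad6, which regulate transcription and growth signals, rose. Etv4, an ETS factor, was at 2.77, 2.95 and 2.96 FPKM with saline and 5.17, 6.19 and 6.78 with thymopentin in TNBS, and at 0.985, 0.960 and 0.524 against 2.13, 1.26 and 2.27 in DSS. The arms were apart in both models (0.75 ± 0.11, limma adjusted p = 0.0126), and the call held without any 1 library. Of 11 tested stem cell and Wnt target genes, Axin2, the standard readout of Wnt signalling, and Sox9, a crypt factor, were called higher, at 0.76 ± 0.16 and 0.52 ± 0.11 (limma adjusted p = 0.0397 and 0.0404), and none lower. The share called higher over all tested genes was 1.86%. Axin2 was at 0.595, 1.13 and 0.646 FPKM in DSS saline and 3.32, 2.33 and 3.29 in DSS thymopentin, while its TNBS arms overlapped, as did those of Sox9. Both calls ended with median-ratio scaling (adjusted p = 0.0522 and 0.07) and without any 1 DSS library, TNBS thymopentin 3 or TNBS saline 1 (up to 0.099), and that of Sox9 also without TNBS saline 3 and with quantile normalization (0.0559). Myb, needed for crypt progenitors, rose by 0.80 (adjusted p = 0.0186), more in DSS (difference between models, adjusted p = 0.0366), and lost its call without DSS thymopentin 1 (0.0521). Smad6, an inhibitor of BMP signalling, rose by 0.60 (limma adjusted p = 0.0316). It was the called member among 19 tested BMP pathway genes, 5.26% of them, with 2.72% called over all tested genes. The TNBS arms of Smad6 overlapped. Its call ended with median-ratio scaling (0.0532) and without any 1 DSS library or without TNBS saline 1 (up to 0.0826). None of 21 cell cycle genes was called. Their median was 0.71 in DSS and -0.03 in TNBS.

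Itih2, Smpx, Ppp1r1b, Uxs1 and Cachd1 rose and held without any 1 library. Itih2, a chain of the inter-alpha-trypsin inhibitors that coat hyaluronan, was at 0.730, 1.48 and 0.211 FPKM with saline and 4.47, 2.22 and 2.20 with thymopentin in TNBS, and at 0.824, 0.886 and 0.606 against 2.98, 3.97 and 2.84 in DSS. Its arms did not overlap (1.20 ± 0.18, limma adjusted p = 0.0128). Smpx, a small cytoskeletal muscle protein, averaged 1.36 ± 0.0777 FPKM with saline and 3.004 ± 0.103 with thymopentin in TNBS, and 0.575 ± 0.313 and 2.09 ± 0.362 in DSS (SD, n = 3 each), with 0.88 ± 0.11 (adjusted p = 0.00529). Ppp1r1b, the phosphatase inhibitor DARPP-32, rose by 0.87, Uxs1, which makes UDP-xylose, by 0.68, and Cachd1, a calcium channel subunit relative, by 0.63 (adjusted p = 0.0158, 0.00529 and 0.00529). Mat2a, which makes the methyl donor S-adenosylmethionine, and Tppp, a tubulin-binding protein, rose by 1.02 and 1.08 (adjusted p = 0.0165 and 0.019) but lost their calls without DSS saline 3 (0.0507 and 0.0524). St6galnac4, a sialyltransferase, rose by 1.02 (adjusted p = 0.0214) and lost its call without DSS saline 3 or DSS thymopentin 1 or 2 (up to 0.0615).

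Pooling the models called 58 genes (34 higher, 24 lower) that neither model called alone. By p, the named genes that led them were Hist1h3d, Gbp6, Tmsb10, Btnl2, Gatm, Gstt1, Mlst8 and Psmb10. Tmsb10, an actin-sequestering thymosin, averaged 426 ± 35.3 FPKM with saline and 246 ± 45.1 with thymopentin in TNBS, and 628 ± 148 and 419 ± 50.9 in DSS, without overlap (-0.68 ± 0.13, limma adjusted p = 0.0269). Btnl2, a butyrophilin-like protein that restrains T cells, fell by 0.93. Gatm, which catalyses the first step of creatine synthesis, rose by 0.86, the histone gene Hist1h3d by 0.60, Gstt1 by 0.47 and Mlst8, a subunit of both mTOR complexes, by 0.34 (limma adjusted p = 0.0247 to 0.0335). In all 8 the arms did not overlap in either model, which also held for 287 of the 375 average calls and for 5.26% of all tested genes. The 8 were picked by low p, which favours such separation. Each call was lost in at least 4 of 12 fits with 1 library left out (adjusted p up to 0.0846), TNBS saline 1 and DSS thymopentin 1 among the libraries in all 8, and those of Gstt1 and Mlst8 also with median-ratio scaling (adjusted p = 0.0832 and 0.0995). With quantile normalization Hist1h3d, Gstt1 and Mlst8 lost their calls (0.0522, 0.0669 and 0.0772).

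For some lists the median had opposite signs in TNBS and DSS. The 24 type I interferon response genes had a median of -0.37 on average, -0.98 in TNBS and 0.22 in DSS. Zbp1, a sensor of Z-form nucleic acids, was the called member, at -0.82 ± 0.19 (limma adjusted p = 0.0476), and its call was lost whichever library was left out, TNBS saline 3 and TNBS thymopentin 2 excepted (up to 0.109). That is 4.17% of the list called, with 2.72% called over all tested genes. Isg15, a ubiquitin-like antiviral modifier, and Ifit1, which binds viral RNA, had averages of -0.95 ± 0.38 and -0.93 ± 0.41 that were not called (adjusted p = 0.17 and 0.198). Their within-model values were -2.07 and 0.17 for Isg15 and -2.15 and 0.29 for Ifit1. The differences between models were called (adjusted p = 0.0171 and 0.0117). Smooth muscle markers had medians of 0.45 in TNBS and -0.92 in DSS, enteric neuron and glia markers of 0.41 and -0.65, and matrix and fibroblast genes of 0.57 and -0.44. No member of these 3 lists was called on average. The summed smooth muscle FPKM was 3039 to 3575 in DSS saline against 1319 to 1999 in DSS thymopentin. No tested member was called among B and plasma cell, goblet, enteroendocrine, tuft, endothelial, mesothelial, red blood cell, small intestine and distal Hox genes, or among glucocorticoid response, unfolded protein response and mitochondrial genome genes. Their average medians lay between -0.48 (red blood cell markers) and 0.24 (distal Hox genes). Over all tested genes the difference between models was called for 710 (5.15%), 594 of them with opposite signs.

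**Figure D5:**
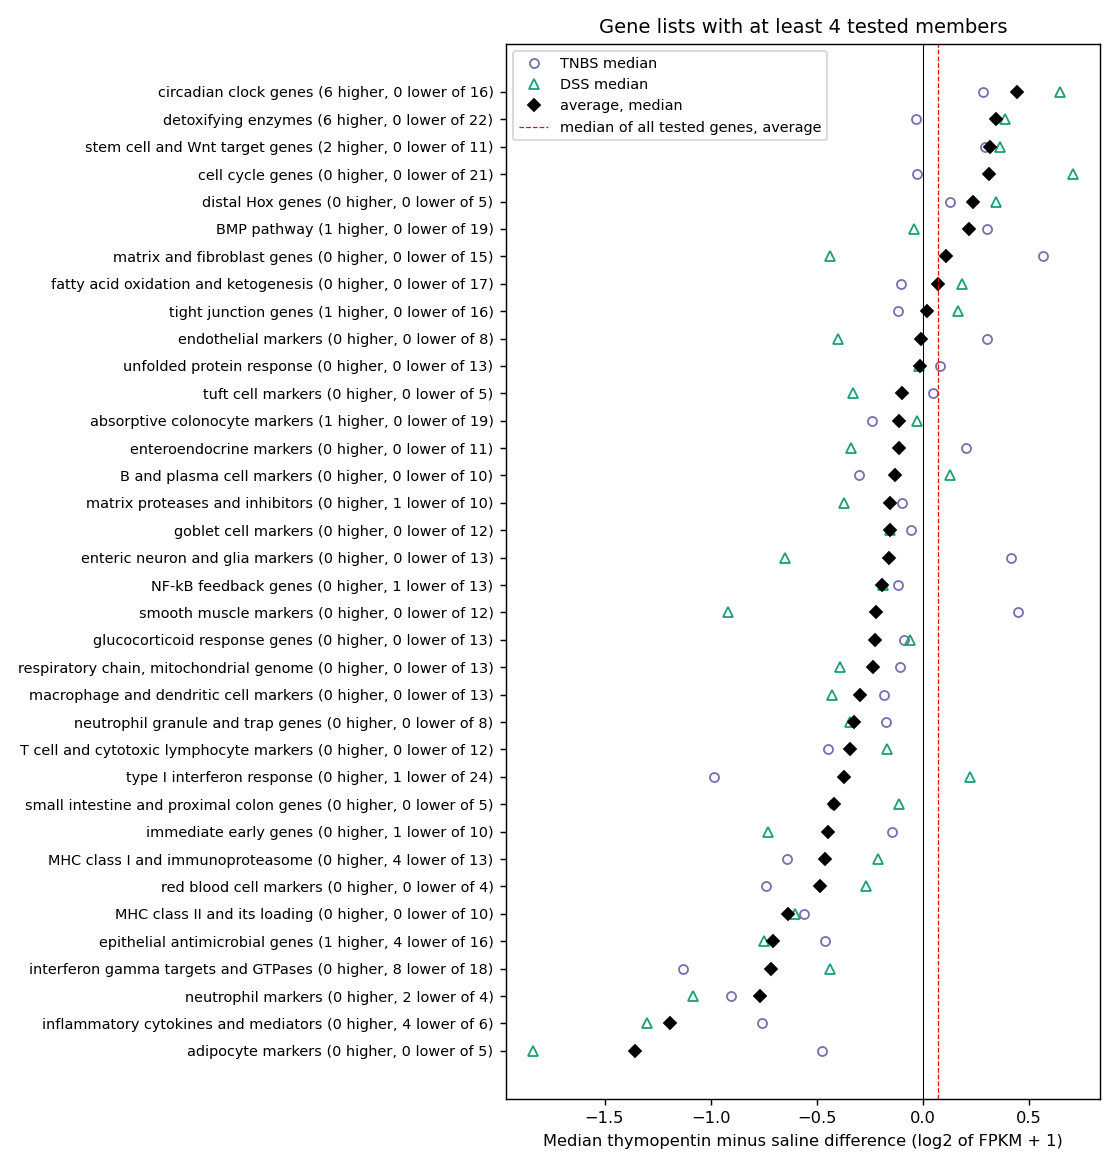
Median thymopentin minus saline difference, log2(FPKM + 1), of each gene list with at least 4 tested members, in TNBS (circles), in DSS (triangles) and on average (diamonds, which cover a symbol at the same place). Labels give how many members were called higher and lower; the dashed red line is the median of all 13794 tested genes, 0.07.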

How the data were processed

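Colon RNA of wild-type mice with colitis was measured in 12 libraries, 4 groups of 3, grouped by treatment labels. The authors deposited FPKM for 55335 genes in all libraries, and, for genes they had selected in each model, log2 columns that hold log2(x + 1) of size-factor scaled reads as judged from the values. The deposited log2 columns served only to show read numbers: 9362 low values (up to 30 reads) came out whole within 0.01. These cover selected genes alone, so no count test was made. Per the submitters' processing notes the tools were FastQC, STAR 2.5, Cuffnorm and DESeq 1.22.1 with build mm9, in no stated role or order. The sources used here do not give total reads per library. Libraries are strand-specific per the labels' protocols.

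Genes with mean FPKM of at least 1 (13794) were tested on log2(FPKM + 1), which understates changes of low genes. limma 3.58.1 (R 4.3.3, trended empirical Bayes) fitted treatment with model as a block. A second limma fit of 4 group means gave within-model values and the difference between models. P-values are two-sided, adjusted by Benjamini-Hochberg over all tested genes, and called under 0.05. Python 3.11.15 (pandas 2.3.3, numpy 2.4.6) read the tables, and matplotlib 3.10.9 drew the plots. The fit was tested on simulated data. Promoters are from RefSeq (GRCm38.p6), another build than mm9, so no other coordinates are given.

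The comparison and its 39 gene lists were chosen with earlier results of these data known. By rule the text names the 12 largest and 12 smallest averages among calls that did not overlap within models and held without any 1 library. It also names up to 4 called members per list and the 8 lowest p among genes called in neither model alone. Added to these are 6 calls per direction with the most equal responses among those of at least 1 in size. The last are up to 4 calls with a called difference between models, and 12 genes of neutrophils or of their attraction. Unnamed gene models and immunoglobulin segments were left out. Every other gene named was added after its values were seen.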

Additional observations from a re-analysis of the deposited data

Results flagged for a closer look

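For 15 of the genes named above, the thymopentin response differed between DSS and TNBS by the test of the difference itself (limma interaction term, adjusted over all tested genes). The values here are the DSS response minus the TNBS response on the log2(FPKM + 1) scale. Genes with a larger fall in TNBS than in DSS, or a fall in TNBS alone, gave positive differences: 2.44 for Ifit1, 2.24 for Isg15, 2.24 for Ido1, 1.31 for Igtp, 0.889 for Psmb9 and 0.816 for B2m. Genes with a larger rise in DSS also gave positive differences: 1.80 for Gstm3, 1.34 for Nox1, 1.10 for Gsta3, 0.893 for Clock, 0.749 for Gstm1, 0.736 for Myb and 0.685 for Acss2. The difference was negative for Nos2, at -1.25, which fell more in DSS, and for Cyp2c69, at -0.880, which rose more in TNBS. Adjusted p-values (limma) ran from 0.0117 for Ifit1 to 0.0484 for Acss2. For these genes the average stands between unequal responses. Isg15, Ifit1 and Clock were not called on average.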

How the results depend on the processing

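As reported, 257 genes were called higher and 118 lower. Higher calls numbered 155 with a mean FPKM of at least 5, 134 with at least 0.1, 54 with no filter, 152 with quantile normalization and 94 with median-ratio factors. They numbered 926 when each of the 4 groups had its own mean and 10 with no term for the model. Lower calls under the FPKM 5 filter, no filter, 4 group means and no model term were 77, 30, 268 and 17. Leaving out 1 library gave 38 to 413 higher and 34 to 162 lower genes, and 176 to 764 calls for the difference between models, which numbered 2327 with array weights. The fits with 4 group means and with no model term gave the same average differences as reported, with a median of 0.07. Only the spread against which these were tested, and its degrees of freedom, changed. The cause of the other shifts was not tested, except that filters and left-out libraries change the number of genes or samples entering the fit. Of the 91 called genes named by rule or added, 24 were still called with no model term, 35 with the replicate block, 42 with no filter and 44 to 85 without 1 library. There were 73 with a mean FPKM of at least 0.1, 78 with median-ratio factors, 80 with quantile normalization, 80 with a pseudocount of 0.1 and 91 with a pseudocount of 5.

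Replicate numbers were checked for pairing: deviations from group means correlated at 0.124, 0.268 and 0.476 for same-numbered TNBS libraries and at -0.136, 0.0427 and -0.140 for DSS, and not every library matched its own number best, so the numbers were not taken as pairs. With a replicate block 30 genes were called higher and 34 lower, and with a block in TNBS only, an alternative chosen after seeing the data, 253 and 141. The block in both models ended 56 of the 91 named calls, and those lost among genes called without any 1 library were Iigp1, Trim40, Capg, Duoxa2, Il18bp, Nr1d2, Maob, Etv4, Ppp1r1b, Gstm1, Gstm2, Ugt2b35, Anpep and Pcca (limma adjusted p up to 0.0817). The block in TNBS only ended 8, those of Psmb9, Lif, Duox2, Sox9, Tef, Gsta3, Gstm3 and Nox1, and called Retnlb. Either block called 5 MHC class II genes lower.

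Signs turned only for genes that were not called. Ly6g was at -0.324 without TNBS saline 3 and at up to 0.560 without other single libraries. The Cd177 average log2 difference was -0.0180 with quantile normalization, -0.0776 with median-ratio factors and -0.0214 with array weights, and ran from -0.0998 to 0.2003 in the fits without 1 library. With median-ratio factors Kpna3 was at -0.0134 and Eif2s3y at -0.0284. Depth in reads is known only for genes the authors selected, so how far depth limits low genes could not be read from the FPKM.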

Other observations

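Kdm5d, a histone demethylase gene of the Y chromosome, was called higher with thymopentin and chosen for a look after its values were seen. It was at 2.57, 2.52 and 2.76 FPKM with saline and 4.04, 4.50 and 3.84 with thymopentin in TNBS, and at 2.23, 2.70 and 1.99 and 3.27, 3.96 and 3.76 in DSS, with a difference of 0.50 ± 0.071 (limma adjusted p = 0.0101). Other Y-linked genes were not called: Ddx3y had 0.15 ± 0.081, Uty 0.16 ± 0.12 and Eif2s3y 0.07 ± 0.068 (adjusted p = 0.298, 0.45 and 0.594), and Eif2s3y was at -0.03 with median-ratio scaling. Xist, which is expressed from the inactive X of female cells, was at most 0.0871 FPKM in any of the 12 libraries.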
